A study of Mus musculus with 32 samples.

Results

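Kdr, Flt1 and Flt4 encode the 3 VEGF receptor tyrosine kinases, and Nrp1 and Nrp2 encode the 2 neuropilins that serve them as co-receptors. The 5 genes were taken by name, and each array probe was tied to a gene through its RefSeq accession. This gave 7 probes for the 5 genes, of 20145 genes named on the array. Flt1, Flt4 and Nrp1 have 1 probe each, and Kdr and Nrp2 have 2 each, of which the probe with the higher mean over 32 arrays is called the brighter one. A level is a probe's log2 processed signal from which the array's own 75th percentile was subtracted, so that 0 is the 75th percentile and levels of different probes are not compared. A feature was called where limma's Benjamini-Hochberg adjusted p was under 0.05.

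The 32 single-colour Agilent mouse arrays hold RNA of tumours of 4T1-Luc, a mouse mammary carcinoma line that carries luciferase, injected into the mammary fat pad when the mice, female Balb/C animals, were 8 weeks old. After 1 week for the tumours to establish, mice received sunitinib at 40 mg/kg or its vehicle, PBS with DMSO, which the sunitinib mice received too. Sunitinib is a small-molecule inhibitor of several receptor tyrosine kinases, the VEGF receptors among them. At 1300 mm3, tumours of 4 mice labelled resistant to sunitinib, 4 labelled sensitive and 4 given vehicle were each divided into an EC fraction, selected with magnetic beads against the endothelial surface protein PECAM-1, and a bulk fraction, the digested tissue left after that selection. Smaller tumours gave a bulk sample only: 2 sunitinib and 2 vehicle mice at day 9, and 2 sunitinib and 2 vehicle mice at 600 mm3. All tumours come from 1 cell line, bulk is not whole tumour, and the rule that made a mouse sensitive or resistant is not given in the sources used here beyond a reading up to day 8. Each array is a separate mouse within its group, and both fractions of a tumour share a mouse number.

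Arrays lay on 4 slides. All 8 resistant arrays were on 1 slide and the sensitive and vehicle EC arrays on another. The sensitive and vehicle bulk arrays at 1300 mm3 were on another again, and the 8 smaller tumours on the last. Slide and resistance, and slide and tumour stage, therefore cannot be told apart. In sensitive and vehicle mice slide and fraction cannot be told apart either, since EC and bulk lay on different slides. On the resistant EC arrays 46.1% to 53.0% of probes were well above background, against 79.9% to 86.4% on sensitive and 80.4% to 82.2% on vehicle EC arrays. The bulk array of resistant mouse 2 stood apart with 83.5%, where the other 3 resistant bulk arrays began at 55.3%. The bulk array of vehicle mouse 3 had a mean level of 1.28 over 18 endothelial markers, and the other 3 vehicle bulk arrays of that size lay between -2.72 and -2.20. Called values that move with either array are given with and without it. The markers fit the fractions only in part. All 18 endothelial markers were called higher in EC than in bulk and all 11 tumour epithelial markers lower. But all 11 macrophage markers were also called higher in EC, with a median log2 difference of 2.24. Of all features 18.1% were called higher in EC and 16.8% lower. In these samples of many cells, fewer cells of a type and less RNA per cell cannot be told apart.

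VEGF-A is the main ligand of KDR (VEGFR2), the receptor that carries most of its growth, survival and permeability signal in blood vessels. FLT1 (VEGFR1) binds VEGF-A tightly but signals weakly, is also made as a soluble decoy, and is found on endothelial cells and macrophages; PlGF and VEGF-B bind it and not KDR. FLT4 (VEGFR3) binds VEGF-C and VEGF-D and is known from lymphatic vessels and from sprouting tips of blood vessels. Neuropilins have no kinase: NRP1 strengthens the VEGF-A and KDR complex and NRP2 that of VEGF-C and FLT4, and both also bind class 3 semaphorins together with plexins.

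The genes lie on mouse build GRCm38.p6 at chr5:75932827-75979072 (Kdr), chr5:147561604-147726438 (Flt1), chr11:49609679-49652739 (Flt4), chr8:128358591-128505476 (Nrp1) and chr1:62703317-62818692 (Nrp2). The probes target their transcripts, and both Kdr probes are annotated to the same RefSeq transcript, whereas the Nrp2 probes are annotated to different transcripts of the gene. Promoters of Flt1, Kdr and Nrp2 are shown. Flt1 and, by its brighter probe alone, Kdr were called lower in resistant than in sensitive EC, and Nrp2 was the gene lower in EC than in bulk. They run from 250 bases before to 50 bases after the start that RefSeq's promoter table uses (GRCm38.p6), 5′ to 3′ on the gene's strand, with the ETS core GGAA, on either strand, in capitals. ETS factors such as ERG and FLI1 bind this core and are known regulators of endothelial genes. The windows are chr5:147725962-147726261 (minus strand) for Flt1, chr5:75978406-75978705 (minus strand) for Kdr and chr1:62703067-62703366 (plus strand) for Nrp2. For Kdr and Flt1 this start lies inside the printed gene span, and the transcript it belongs to is not given in the sources used here.
Flt1: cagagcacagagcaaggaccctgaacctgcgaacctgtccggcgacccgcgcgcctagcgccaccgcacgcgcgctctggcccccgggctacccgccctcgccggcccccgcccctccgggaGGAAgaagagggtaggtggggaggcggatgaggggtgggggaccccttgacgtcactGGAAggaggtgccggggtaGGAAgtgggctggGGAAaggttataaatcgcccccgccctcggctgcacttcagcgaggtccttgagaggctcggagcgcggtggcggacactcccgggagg
Kdr: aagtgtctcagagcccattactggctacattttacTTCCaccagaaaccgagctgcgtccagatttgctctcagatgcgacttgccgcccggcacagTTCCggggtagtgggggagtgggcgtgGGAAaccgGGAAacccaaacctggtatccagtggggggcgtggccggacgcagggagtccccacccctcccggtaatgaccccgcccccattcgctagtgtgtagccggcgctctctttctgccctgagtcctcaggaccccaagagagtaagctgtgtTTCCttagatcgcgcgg
Nrp2: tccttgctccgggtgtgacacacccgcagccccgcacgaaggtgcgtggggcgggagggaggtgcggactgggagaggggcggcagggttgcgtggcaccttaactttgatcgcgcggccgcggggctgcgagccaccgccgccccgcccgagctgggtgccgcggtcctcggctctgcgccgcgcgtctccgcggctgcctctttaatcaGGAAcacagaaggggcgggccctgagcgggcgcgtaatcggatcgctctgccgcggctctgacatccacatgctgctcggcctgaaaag

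The GGAA core occurred 4 times in the Flt1 window, 5 times in that of Kdr and 1 time in that of Nrp2, and 5 and 2 times in those of Nrp1 and Flt4. It is common: 96.0% of 32851 RefSeq promoters of the same length hold it, with a median of 3 matches. The cAMP response element TGACGTCA was found in the Flt1 window and in none of the other 4, and 1.79% of all promoters hold it. A TATA box, TATAAA, was likewise in the Flt1 window alone among the 5, against 13.6% of all promoters. The GC box GGGCGG had 2 matches in Kdr, 3 in Flt1, 3 in Flt4, 1 in Nrp1 and 5 in Nrp2, and 35.7% of promoters hold it. The hypoxia response core ACGTG was in none of the 5 windows and in 19.6% of all promoters. Both strands were searched, and a match is a description of these letters, not a binding site.

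**Figure D1:**
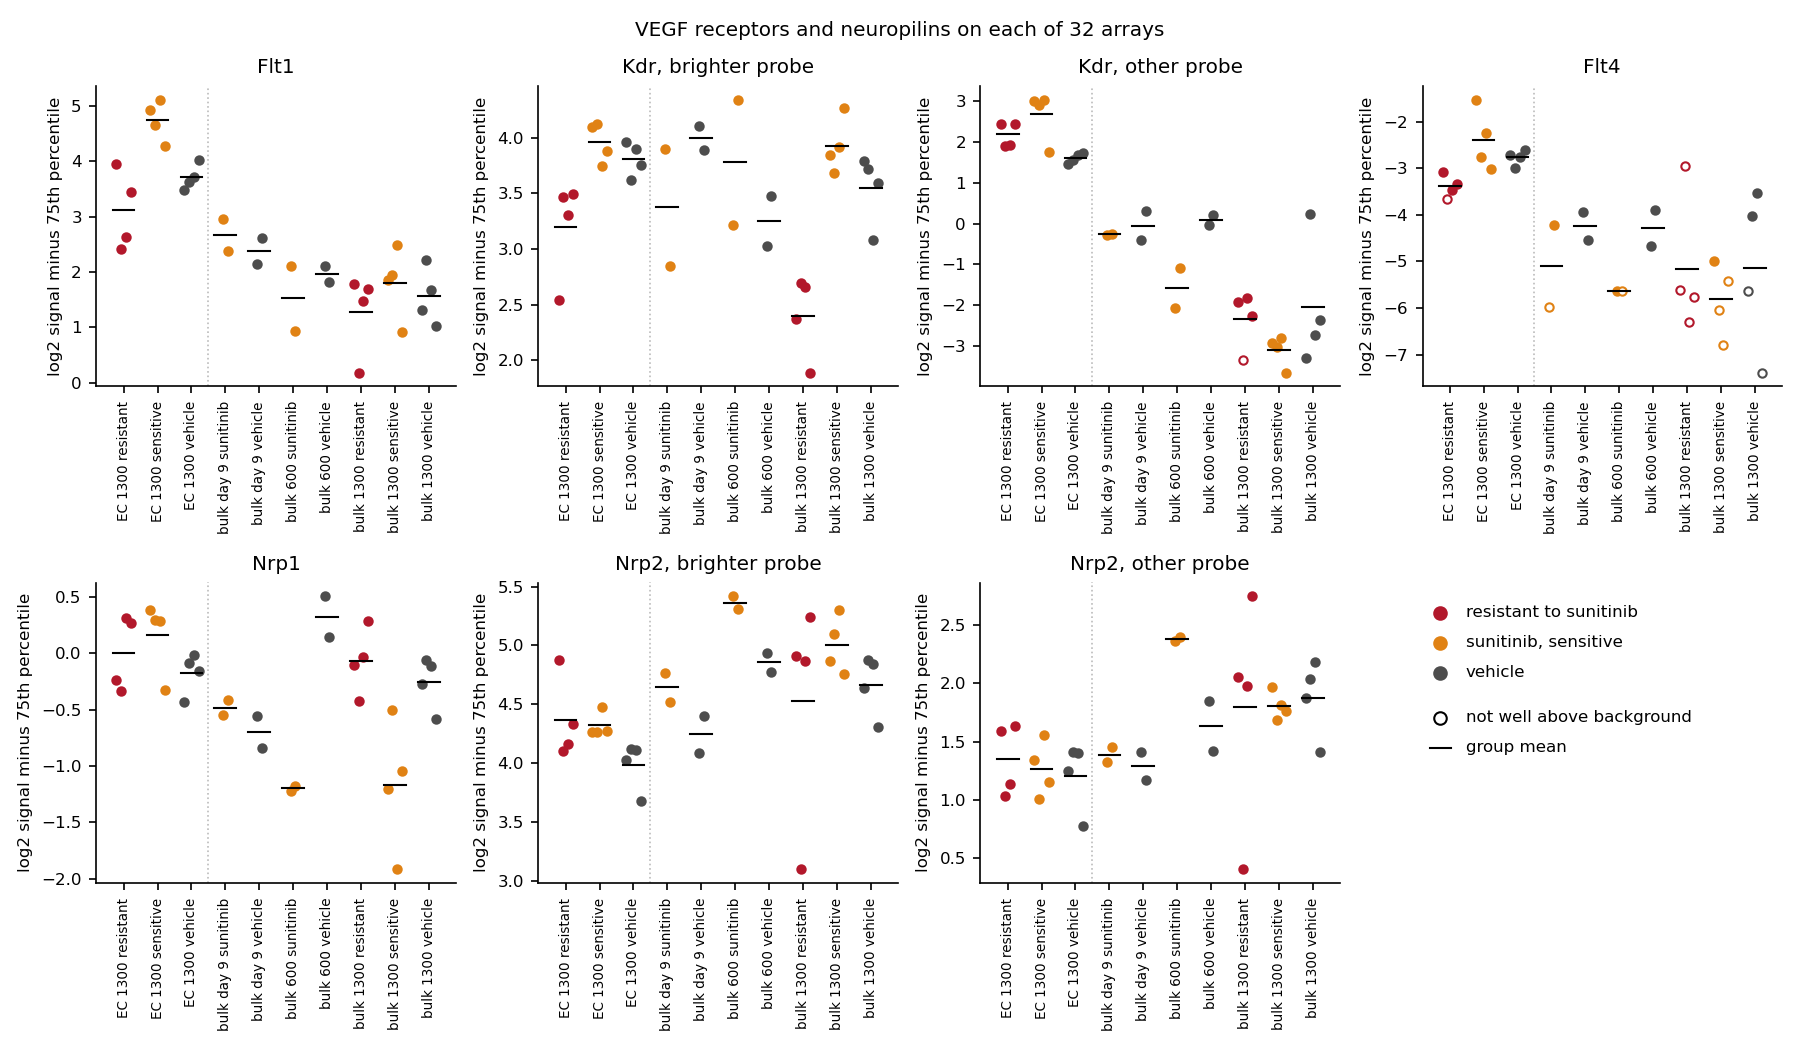
Level of each of the 7 probes on each of 32 arrays (y axis: log2 signal minus the array's 75th percentile; x axis: the 10 groups, EC left of the dotted line). Points are arrays, open points are not well above background, and lines are group means. Flt1 and the other Kdr probe are high in EC, Nrp2 is not, and the bulk array of resistant mouse 2 lies lowest for Flt1 and for Nrp2.

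Flt1 had the highest levels in EC of sensitive mice, and its probe was well above background on all 32 arrays. Its levels were 3.96, 2.42, 2.64 and 3.44 in resistant EC (mean 3.11 ± 0.71, SD, n = 4), 4.92, 4.65, 5.11 and 4.27 in sensitive EC (4.74 ± 0.36, SD, n = 4) and 3.48, 3.62, 3.72 and 4.03 in vehicle EC (3.71 ± 0.23, SD, n = 4). Every sensitive EC array lay above every resistant and every vehicle one, and the resistant and vehicle arrays overlapped. The bulk levels at 1300 mm3 were 1.79, 0.18, 1.47 and 1.70 in resistant mice, 1.85, 1.95, 2.49 and 0.92 in sensitive mice and 1.32, 2.21, 1.68 and 1.03 in vehicle mice. These 3 bulk groups overlapped each other and lay below every sensitive and vehicle EC array, and 1 of the 12 bulk arrays, sensitive mouse 4, lay above the lowest resistant EC array. In smaller tumours Flt1 stood at 2.95 and 2.39 in sunitinib and 2.15 and 2.62 in vehicle mice at day 9, and at 2.11 and 0.94 in sunitinib and 2.11 and 1.82 in vehicle mice at 600 mm3.

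The 2 Kdr probes gave different pictures of the same gene. The brighter one (A_55_P2094469) was at 2.54, 3.47, 3.31 and 3.50 in resistant EC, 4.09, 4.12, 3.75 and 3.88 in sensitive EC and 3.96, 3.62, 3.90 and 3.76 in vehicle EC. At 1300 mm3 its bulk levels were 2.37, 2.69, 2.66 and 1.89 in resistant mice, 3.85, 3.68, 3.92 and 4.27 in sensitive mice and 3.79, 3.72, 3.08 and 3.59 in vehicle mice. At 1300 mm3 the resistant arrays were the low ones by this probe in both fractions, and EC and bulk of sensitive and of vehicle mice overlapped. At day 9 it was at 3.90 and 2.85 in sunitinib and 4.11 and 3.89 in vehicle mice, and at 600 mm3 at 3.22 and 4.34 in sunitinib and 3.02 and 3.48 in vehicle mice. Of these, 2.85, 3.22 and 3.02 lay below 3 of the 4 resistant EC arrays.

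The other Kdr probe (A_51_P316553), spotted 10 times on each array with a median SD of 0.0862 between its spots, was instead high in EC and low in bulk. It stood at 2.45, 1.90, 1.94 and 2.45 in resistant EC, 3.01, 2.90, 3.04 and 1.75 in sensitive EC and 1.47, 1.56, 1.68 and 1.74 in vehicle EC. Its bulk levels at 1300 mm3 were -1.92, -3.33, -1.83 and -2.27 in resistant mice, -2.92, -3.02, -2.81 and -3.66 in sensitive mice and -3.30, 0.24, -2.74 and -2.37 in vehicle mice, where 0.24 is mouse 3. At day 9 it was at -0.28 and -0.25 in sunitinib and -0.41 and 0.30 in vehicle mice, and at 600 mm3 at -2.07 and -1.08 in sunitinib and -0.03 and 0.22 in vehicle mice. Its levels ran along with the mean level of the 18 endothelial markers, from bulk at 1300 mm3 through the smaller tumours to EC, and those of the brighter probe did not.

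**Figure D2:**
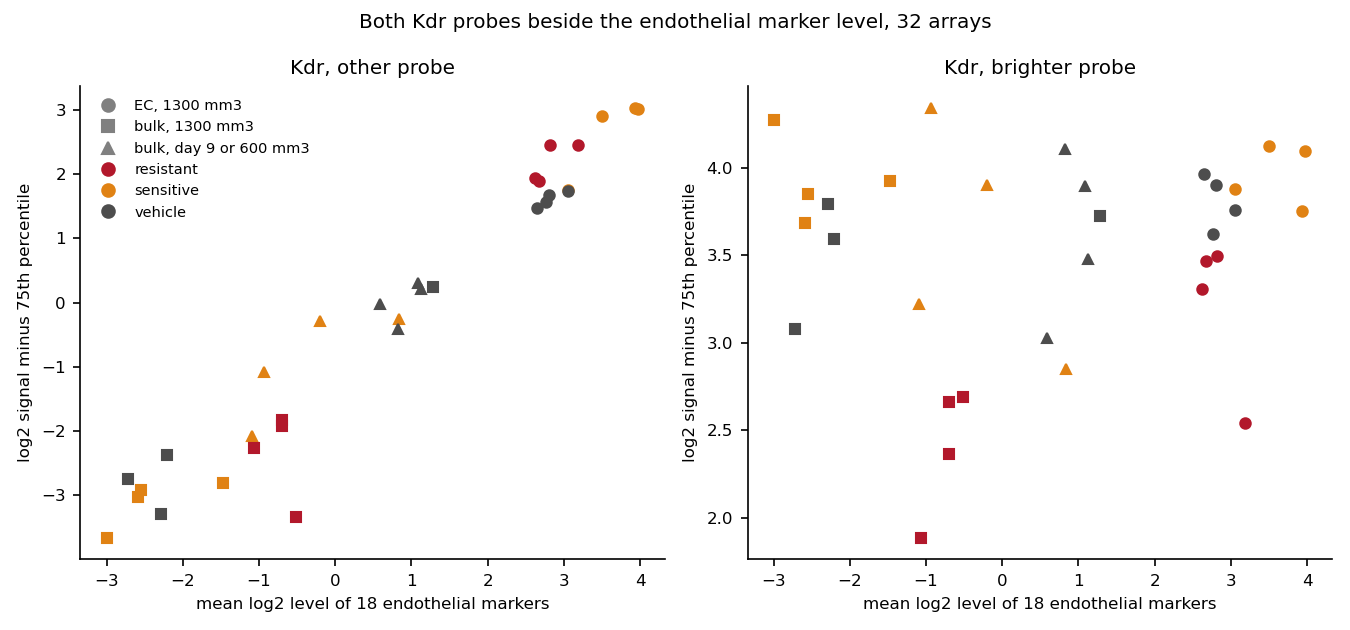
Level of the other Kdr probe (left) and of the brighter one (right) on 32 arrays against the mean log2 level of 18 endothelial markers (x axis). The 12 EC arrays hold the highest values of the other probe, from 1.47 to 3.04, whereas the brighter probe spans 1.89 to 4.27 in bulk at 1300 mm3 and 2.54 to 4.12 in EC.

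Flt4, known from lymphatic endothelium, was well above background on 20 of 32 arrays, the fewest among the 5 genes. Its levels were -3.08, -3.67, -3.47 and -3.34 in resistant EC, where 3 of 4 arrays were above background, -1.53, -2.75, -2.25 and -3.02 in sensitive EC and -2.72, -2.99, -2.76 and -2.60 in vehicle EC. The resistant values lay below all sensitive and vehicle values. In bulk at 1300 mm3 it was above background on 0 of 4 resistant, 1 of 4 sensitive and 2 of 4 vehicle arrays, and it was not tested between these groups. The lymphatic markers in the same EC arrays had mean levels of -3.14 to -1.91 in resistant, -2.57 to -0.44 in sensitive and -2.73 to -1.42 in vehicle mice, and their part in the Flt4 values was not tested. At day 9 Flt4 was at -5.97 and -4.21 in sunitinib and -3.94 and -4.54 in vehicle mice, and at 600 mm3 at -5.62 and -5.64 in sunitinib and -4.66 and -3.90 in vehicle mice.

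Nrp1 was near the 75th percentile in most groups and low in 2 of the sunitinib bulk groups. It was at -0.24, -0.34, 0.31 and 0.27 in resistant EC, 0.39, 0.29, 0.29 and -0.33 in sensitive EC and -0.43, -0.09, -0.02 and -0.16 in vehicle EC, and these groups overlapped. In bulk at 1300 mm3 it was at -0.11, -0.43, -0.04 and 0.28 in resistant mice, -1.20, -0.50, -1.92 and -1.04 in sensitive mice and -0.27, -0.06, -0.12 and -0.59 in vehicle mice. Sensitive bulk lay below all resistant bulk arrays and overlapped with vehicle bulk at 1 array of each. At day 9 Nrp1 was at -0.55 and -0.42 in sunitinib and -0.56 and -0.84 in vehicle mice, and at 600 mm3 at -1.22 and -1.17 in sunitinib and 0.50 and 0.14 in vehicle mice.

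Nrp2 was measured above background on all 32 arrays by both probes. Its brighter probe averaged 4.37 ± 0.35 in resistant, 4.32 ± 0.11 in sensitive and 3.98 ± 0.21 in vehicle EC (SD, n = 4 each). In bulk at 1300 mm3 it was at 4.91, 3.097, 4.87 and 5.24 in resistant mice, where 3.097 is mouse 2, and averaged 5.01 ± 0.24 in sensitive and 4.67 ± 0.26 in vehicle mice (SD, n = 4 each). At day 9 it was at 4.77 and 4.52 in sunitinib and 4.09 and 4.402 in vehicle mice, and at 600 mm3 at 5.42 and 5.31 in sunitinib and 4.94 and 4.78 in vehicle mice. The other Nrp2 probe gave the same picture on its own scale, with means of 1.35 in resistant, 1.26 in sensitive and 1.21 in vehicle EC and of 1.80 in resistant, 1.80 in sensitive and 1.88 in vehicle bulk at 1300 mm3.

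Ordered by group means, neighbouring groups mostly overlapped. The share of all features whose groups did not overlap was not counted, here or in the comparisons below. For Flt1 the exceptions were sensitive over vehicle EC and vehicle at day 9 over vehicle at 600 mm3. For the other Kdr probe 3 steps were free of overlap, from resistant to vehicle EC, from vehicle EC to vehicle bulk at 600 mm3, and from sunitinib bulk at day 9 to sunitinib bulk at 600 mm3. The brighter Kdr probe had no such step. For Flt4 they were vehicle over resistant EC and resistant EC over vehicle bulk at day 9. Nrp1 had 1 such step, sunitinib over vehicle bulk at day 9, and each Nrp2 probe had 1, where sunitinib bulk at 600 mm3 lay above the next group, sensitive bulk at 1300 mm3 for the brighter probe and vehicle bulk at 1300 mm3 for the other.

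The comparison of EC with bulk within the same tumours asked in which fraction the level of each gene was higher. In sensitive and vehicle mice the fractions lay on different slides, and the part of the slide was not tested. Flt1 and Flt4 were higher in EC, Nrp1 slightly so, and Nrp2 was lower in EC. The Flt1 difference ranged from 1.17 to 3.36 over the 12 mice and was positive in 12 of 12. Averaged over the 3 treatments it was 2.31 on the log2 scale (SE 0.15, adjusted p = 5.79e-06, limma with mouse as a block). Flt4 gave a fitted difference of 2.52 (SE 0.40, adjusted p = 0.000703), but it was well above background on 3 of 12 bulk arrays, so that its size is not settled. The difference was positive in 11 of 12 mice, and in the other one, resistant mouse 2, neither fraction was above background. Nrp1 was higher in 8 of 12 mice, by 0.49 on average (SE 0.14, adjusted p = 0.0178). Nrp2 was lower in EC of 11 of 12 mice, with a difference of -0.51 by its brighter probe (SE 0.15, adjusted p = 0.0232) and -0.55 by the other (SE 0.14, adjusted p = 0.0108), again with resistant mouse 2 as the exception. Without that mouse the Nrp2 differences were -0.64 and -0.67 (adjusted p = 0.00025 and 0.000116), and leaving out 3 other mice in turn put the brighter probe between 0.0504 and 0.0558.

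Kdr rested on the probe. The brighter one was higher in EC of 9 of 12 mice, by 0.37 (SE 0.14, adjusted p = 0.0712), and the other of 12 of 12 mice, by 4.65 (SE 0.27, adjusted p = 3.26e-06). The EC minus bulk difference of the other probe exceeded that of the brighter one by 4.29 ± 1.36 (SD, n = 12 mice), in 12 of 12 mice. For Nrp2 the same difference between probes was -0.04 ± 0.26. That the Kdr probes disagree was known from these arrays beforehand, so no test is given. Counting the brighter probe of each gene, 4 of the 5 genes passed, against 34.9% of 42216 features tested: 3 were higher, against 18.1% of features, and 1 was lower, against 16.8%. Without resistant mouse 2 the brighter Kdr probe passed too, at 0.37 (adjusted p = 0.0498).

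**Figure D3:**
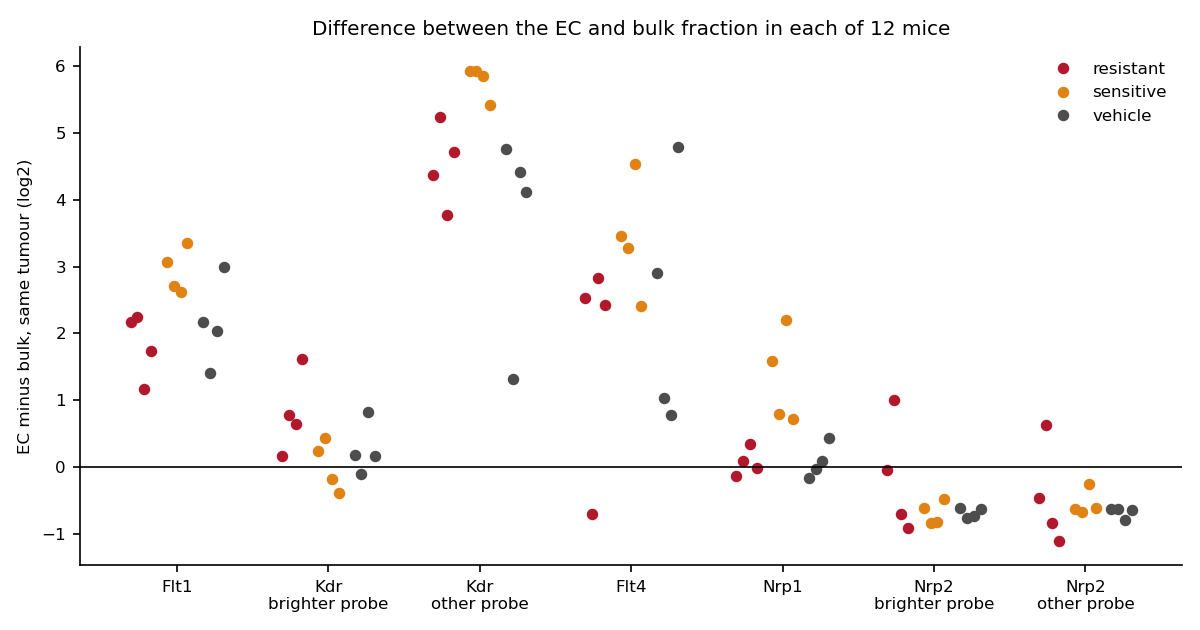
EC minus bulk difference of each probe (y axis, log2) in each of 12 mice, coloured by treatment. All 12 mice lie above 0 for Flt1 and for the other Kdr probe, 11 lie below 0 for each Nrp2 probe, and Nrp1 is above 0.7 in the 4 sensitive mice alone.

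Split by treatment, Flt1 was higher in EC of resistant mice by 1.83 (SE 0.27, adjusted p = 0.00332), of sensitive mice by 2.94 (SE 0.27, adjusted p = 0.000144) and of vehicle mice by 2.15 (SE 0.27, adjusted p = 0.00163). The other Kdr probe was higher by 4.52, 5.78 and 3.65 in resistant, sensitive and vehicle mice, with adjusted p of 0.0011, 0.000101 and 0.00176. Its vehicle value was 4.43 without mouse 3 (adjusted p = 2.79e-05), whose own difference was 1.32 where the other 3 vehicle mice had 4.11 to 4.76. The brighter Nrp2 probe differed by -0.16 in resistant mice (adjusted p = 0.77), or by -0.55 without mouse 2 (adjusted p = 0.0416), and the brighter Kdr probe by 0.80 (adjusted p = 0.0561), or by 0.81 without that mouse (adjusted p = 0.0463). In sensitive and in vehicle mice the brighter Nrp2 probe differed by -0.69 each (adjusted p = 0.0975 and 0.107). These Nrp2 values passed at 0.00689 and 0.0075 when resistant mouse 2 was left out of the shared spread. Flt4 had fitted differences of 3.42 in sensitive mice (adjusted p = 0.00743) and 2.38 in vehicle mice (adjusted p = 0.0439), against bulk groups with 1 of 4 and 2 of 4 arrays above background. In resistant mice bulk gave 0 of 4 arrays above background. Flt4 was 2.63-fold higher in EC there when bulk signals under their array's lowest signal above background were raised to it. That value is not a firm minimum, since in mouse 2 neither fraction was above background and EC (-3.67) lay below bulk (-2.96). The fitted difference had an adjusted p of 0.122, which became 0.0131 without mouse 2. The vehicle value of Flt4 lost its call on leaving out any of 11 of the 12 mice in turn, with adjusted p of 0.0509 to 0.214, and was 1.57 without vehicle mouse 5.

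Nrp1 differed between fractions in sensitive mice, at 1.32 (SE 0.24, adjusted p = 0.0046), with differences of 1.59, 0.79, 2.20 and 0.72 in the 4 mice. In resistant mice the difference was 0.07 (adjusted p = 0.893) and in vehicle mice 0.08 (adjusted p = 0.856). The difference between sensitive and vehicle mice was itself 1.24 (SE 0.34, adjusted p = 1), and it did not pass. Of the 5 genes 1 passed in resistant mice, 3 in sensitive and 2 in vehicle mice, against 13.8%, 18.9% and 14.6% of features. Of the calls in resistant mice 50.1% were higher, against 78.8% with normexp, and of those in vehicle mice 62.5%, against 51.0% with the deposited values. No member and no feature at all passed for the fraction difference of sensitive against vehicle mice (limma, 0%; 1403 features had an unadjusted p under 0.05), and no member for resistant against vehicle mice, where 0.298% of features did (3.97% of them higher, 60.3% with normexp).

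In resistant mice both fractions lay on 1 slide. There the Flt1 and the other Kdr differences were 1.83 and 4.52 as well, but with these 8 arrays fitted alone no feature passed, and the adjusted p were 0.241 and 0.143. The macrophage markers, which moved the same way as Flt1 between fractions, had mean levels of 2.57 to 5.46 on EC arrays and 0.04 to 2.47 on bulk arrays at 1300 mm3. Their part in the Flt1 difference was not tested.

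Resistant EC carried less Flt1 and, by its brighter probe, less Kdr than sensitive EC. From the levels above, Flt1 differed by -1.63 (SE 0.32, adjusted p = 0.000735), the brighter Kdr probe by -0.76 (SE 0.22, adjusted p = 0.00911) and Flt4 by -1.001 (SE 0.28, adjusted p = 0.00832), each with groups that did not overlap. How many of all features had groups without overlap was not counted. The other Kdr probe differed by -0.49 (adjusted p = 0.139). Nrp1 differed by -0.16 (adjusted p = 0.538) and Nrp2 by 0.05 (adjusted p = 0.842). So 3 of the 5 genes were called, all of them lower, where 58.9% of all features were called and 43.6% were called lower, against 15.3% higher. Of the 17946 named genes tested there, 5030 were called lower and 3909 higher. A fit with the mouse number as a block used only the arrays of the 3 numbers that both groups share. There Flt1 was at -2.06 (adjusted p = 0.00231), Kdr at -0.57 (adjusted p = 0.087) and its other probe at -0.89 (adjusted p = 0.0235). With no block, leaving out sensitive mouse 5 alone put the other Kdr probe at -0.80 (adjusted p = 0.00446).

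The fall of Flt1 and of the brighter Kdr probe held under all 4 scalings tried, and that of Flt4 did not. With normexp background correction, quantile scaling and the authors' deposited values, Flt1 stood at -1.54, -1.96 and -1.76 and the brighter Kdr probe at -0.90, -1.13 and -1.12, all called. Flt4 stood at -0.03, 0.07 and 0.19 there, with adjusted p of 0.901, 0.868 and 0.468, so its direction is not settled. The same scalings put the share of all calls that were higher at 68.5%, 38.4% and 40.5%, against 26.0% by the 75th percentile, and the median of all named genes at 0.28, 0.08 and 0.07, against 0.11. The low share of probes above background and the single slide of the resistant arrays go with these results, and their part was not tested.

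**Figure D4:**
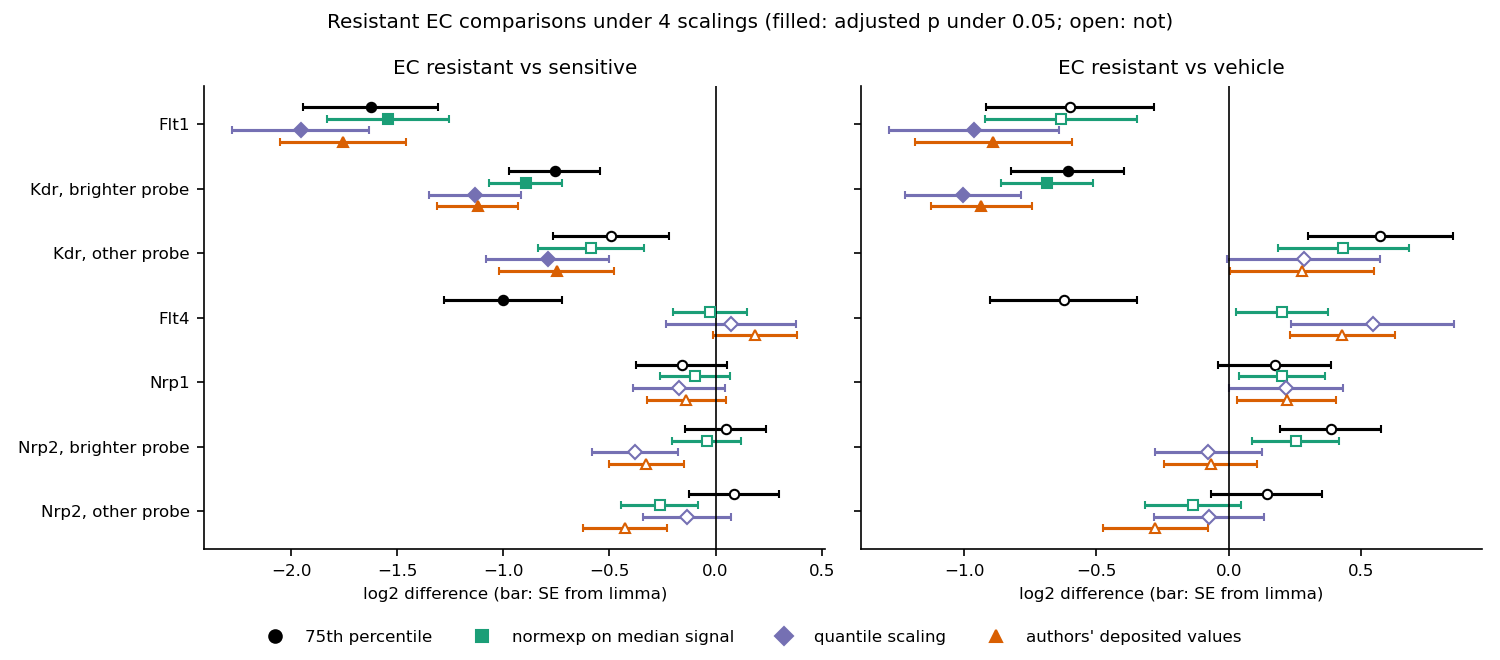
Log2 difference of resistant EC against sensitive EC (left) and against vehicle EC (right) for each probe under 4 scalings. Bars are limma's SE and filled symbols are called. Flt1 and the brighter Kdr probe lie below 0 under all 4 scalings in both panels, and Flt4 lies below 0 on both sides by more than its SE under the 75th percentile alone.

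Against vehicle EC, resistant EC had less Kdr by its brighter probe, at -0.61 (SE 0.22, adjusted p = 0.0277) with groups that did not overlap. The other probe pointed the opposite way, at 0.57 (SE 0.27, adjusted p = 0.0899), also without overlap. Flt1 was at -0.60 (adjusted p = 0.121), Flt4 at -0.62 (adjusted p = 0.0723), Nrp1 at 0.17 (adjusted p = 0.505) and Nrp2 at 0.38 (adjusted p = 0.101). The Nrp2 value, not called under any scaling, turned to -0.08 under quantile scaling and to -0.07 in the deposited values. With quantile scaling and the deposited values Flt1 was called too, at -0.96 and -0.89 (adjusted p = 0.0283 and 0.0265), and Flt4, not called, turned to 0.54 and 0.43. The Kdr call was lost without resistant mouse 1, vehicle mouse 2 or vehicle mouse 4 (adjusted p = 0.0522, 0.0694 and 0.0633). The 1 gene called of 5 stands against 58.7% of features, with 43.2% lower and 15.5% higher, and the higher share of calls was 71.1%, 39.4% and 41.6% under the other scalings, against 26.4%. Of the 17946 named genes tested there, 4768 were called lower and 4114 higher.

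Sensitive EC had more Flt1 than vehicle EC on every array, by 1.03 (SE 0.32), and more of the other Kdr probe, by 1.06 (SE 0.27). Neither passed: the adjusted p was 1 for each of the 7 probes, and limma called no feature (0%; 1471 had an unadjusted p under 0.05). The brighter Nrp2 probe was also higher on every sensitive array, at 0.34 (SE 0.19). The differences were 0.38 for Flt4, 0.15 for the brighter Kdr probe and 0.33 for Nrp1, with overlapping groups. The mean level of the 18 endothelial markers was 2.63 to 3.19 in resistant, 3.05 to 3.98 in sensitive and 2.65 to 3.05 in vehicle EC. Its median was highest in sensitive EC, at 3.72, as the means of Flt1 and the other Kdr probe were. Between resistant and vehicle EC the marker medians lay close, at 2.75 and 2.79. There Flt1 differed by -0.60 and the other Kdr probe by 0.57. The part of the marker level in these values was not tested.

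**Figure D5:**
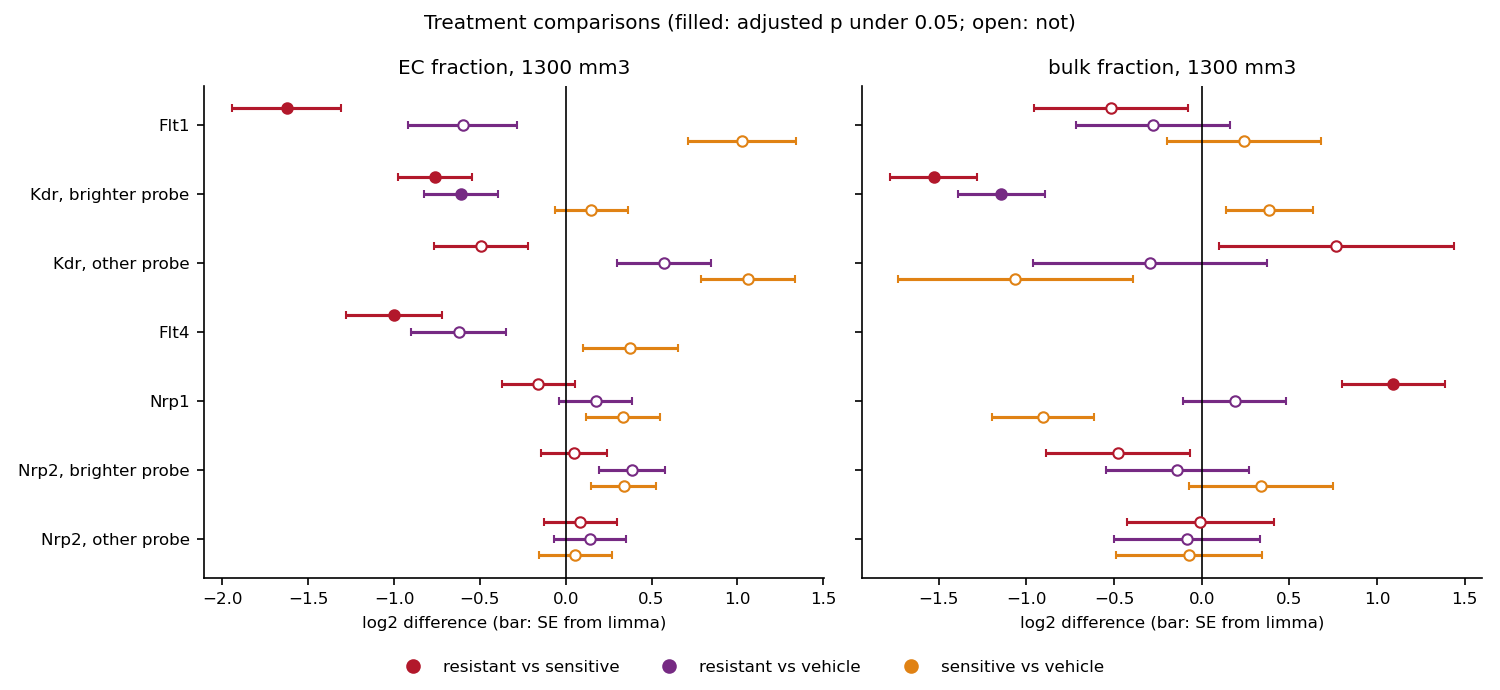
Log2 differences between treatments at 1300 mm3 for each probe in EC (left) and bulk (right). Bars are limma's SE, filled points are called, and Flt4 was not tested in bulk. The brighter Kdr probe is called lower in resistant mice in 4 of 4 comparisons, and Nrp1 is called in 1, resistant against sensitive bulk.

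In bulk at 1300 mm3 the brighter Kdr probe was lower in resistant than in sensitive mice by 1.53 on the log2 scale (log2 difference -1.53, SE 0.25, adjusted p = 0.0019), and than in vehicle mice (-1.14, SE 0.25, adjusted p = 0.0126). The groups did not overlap in either comparison. Without resistant mouse 2 these values were -1.63 and -1.24 (adjusted p = 0.00019 and 0.00153), and without vehicle mouse 3 the second was -1.09 (adjusted p = 0.0345). The other Kdr probe differed by 0.77 and -0.30 (adjusted p = 0.475 and 0.831). Without vehicle mouse 3 its difference from vehicle was 0.47.

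Nrp1 was higher in resistant than in sensitive bulk by 1.09 (SE 0.29, adjusted p = 0.0276), also without overlap. The call was lost on leaving out any of 6 arrays, sensitive mice 2, 4 or 5 or resistant mice 1, 3 or 4, with adjusted p of 0.0593 to 0.0852, and was 0.00484 without resistant mouse 2. Against vehicle, sensitive bulk Nrp1 was at -0.90 (SE 0.29, adjusted p = 0.961) and resistant bulk at 0.19 (adjusted p = 0.751). Flt1 and Nrp2 differed by -0.52 and -0.48 in resistant against sensitive bulk (adjusted p = 0.46 and 0.466), and by -0.15 and 0.00 without resistant mouse 2.

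Of the 4 genes tested in bulk, 2 passed in resistant against sensitive mice, where 16.5% of features did, and 1 in resistant against vehicle mice, where 11.8% did. The share of these calls that were higher was 18.1% and 15.5%, against 29.3% and 26.1% with the deposited values. None passed in sensitive against vehicle mice, where limma called no feature (0%; 1732 had an unadjusted p under 0.05). The endothelial marker level was -1.06 to -0.52 in resistant, -2.99 to -1.47 in sensitive and -2.72 to 1.28 in vehicle bulk. Of the 18 markers 2 were called higher and none lower in resistant against sensitive bulk. The part of the markers in the Kdr difference was not tested.

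In smaller tumours no member passed. At 600 mm3 Nrp1 came nearest: it stood at -1.22 and -1.17 in sunitinib bulk against 0.50 and 0.14 in vehicle bulk, a difference of -1.52 (SE 0.25, adjusted p = 0.0708) without overlap. It was called with normexp, the deposited values, the filter on every array, or named genes alone (adjusted p = 0.0322, 0.0284, 0.0394 and 0.0333). The other Kdr probe was at -1.67 (adjusted p = 0.172) and Flt4 at -1.35 (adjusted p = 0.452), both without overlap. The Nrp2 probes were at 0.51 and 0.75 (adjusted p = 0.505 and 0.334). With 2 arrays a group, 0.285% of features passed, 52.3% of them higher, against 26.7% with normexp and 27.1% with the deposited values.

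At day 9 the sunitinib differences were 0.29 for Flt1, -0.62 for the brighter Kdr probe, -0.85 for Flt4, 0.22 for Nrp1 and 0.40 for Nrp2, with adjusted p from 0.719 to 0.937 over the 7 probes, and 0.00257% of features passed. Averaged over both stages Nrp1 was at -0.65 and the other Kdr probe at -0.94 (adjusted p = 0.409 and 0.462), and limma called no feature (0%; 2773 had an unadjusted p under 0.05). The Nrp1 effect at 600 mm3 minus that at day 9 was -1.74 (SE 0.35, adjusted p = 0.195), where 0.0462% of features passed. Between stages, with treatments averaged, both Nrp2 probes were higher at 600 mm3 than at day 9, by 0.67 each (SE 0.17 and 0.18, adjusted p = 0.0928 and 0.0985), and Flt1 differed by -0.78 (adjusted p = 0.219), where 2.47% of features passed (39.8% of them higher, 19.98% with normexp). The endothelial marker level was -1.09 and -0.93 in sunitinib and 0.59 and 1.12 in vehicle bulk at 600 mm3, and -0.20 and 0.84 in sunitinib and 0.82 and 1.08 in vehicle bulk at day 9. Its part in these values was not tested.

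Set against the smaller tumours, bulk at 1300 mm3 held less of the other Kdr probe: by -2.18 in sunitinib-sensitive mice (SE 0.59, adjusted p = 0.0291) and -2.06 in vehicle mice (SE 0.59, adjusted p = 0.0582). Without vehicle mouse 3 the vehicle value was -2.82 (adjusted p = 0.000861), and without resistant mouse 2, which shares the estimate of the spread, it was called at 0.0108. The sensitive value lost its call on leaving out any of its 8 arrays, with adjusted p of 0.0536 to 0.103. It also lost its call under quantile scaling, at -2.54 (adjusted p = 0.114). The smaller sunitinib tumours it was set against are not labelled sensitive or resistant. The main probes of the 5 genes did not pass in either comparison, where 11.5% and 4.99% of features passed. Of those calls 58.4% and 64.9% were higher, against 71.9% with normexp for the sensitive and 54.3% with quantile scaling for the vehicle comparison. Flt1 was at -0.30 and -0.61 and Nrp1 at -0.33 and -0.07. Slide and stage cannot be told apart here.

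Among the ligands, Vegfa, which feeds both main receptors, was higher in EC than in bulk by 1.03 (SE 0.23, adjusted p = 0.00451), and Pgf, which encodes the FLT1 ligand PlGF, by 1.55 (adjusted p = 4.12e-05). Vegfb was lower by 1.31 on that scale (log2 difference -1.31, adjusted p = 2.24e-05) and Vegfd by 0.72 (log2 difference -0.72, adjusted p = 0.0311). So 2 of the 5 ligands rose and 2 fell, where 18.1% of all features were called higher and 16.8% lower. Vegfc was at -0.44 (adjusted p = 0.0754). In resistant against sensitive EC, Vegfd was at -1.02 (adjusted p = 0.00346) and Pgf at -0.87 (adjusted p = 0.0252), both called lower, while Vegfa was at 0.08. There 43.6% of all features and 5030 of 17946 named genes were called lower. In bulk at 1300 mm3 none of the 5 was called between treatments, and in vehicle mice Vegfa was higher at 1300 mm3 than in smaller tumours, by 1.83 (adjusted p = 0.0486).

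Of 12 semaphorins and plexins that pair with neuropilins, 11 were tested in EC against bulk. Of these 5 rose and 3 fell, where 18.1% of all features were called higher and 16.8% lower. The median difference was 0.01, against 0.04 for all features. Plxna2 rose by 5.27 and Plxnd1, the plexin of endothelial cells, by 2.33, while Sema3e was at -1.15 (all called). In resistant against sensitive EC 5 of 11 fell and none rose. There 43.6% of all features and 5030 of 17946 named genes were called lower, and 15.3% and 3909 higher. Sema3g at -2.45, Sema3a at -2.10 and Plxna1 at -1.87 led, and the list median was -0.34, against -0.49 for all features and 0.11 for all named genes. Plxna1 was called lower in resistant bulk too, at -1.72 against sensitive and -1.54 against vehicle bulk.

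Of 27 partners of VEGF receptor signalling, 12 rose and 5 fell in EC against bulk, beside 18.1% and 16.8% of all features. Ptprb, the endothelial phosphatase VE-PTP, rose by 5.53, Rasip1, a Ras-binding protein of endothelial junctions, by 4.61, and Cav1, the caveolae protein, by 3.65. In resistant against sensitive EC 7 of 27 fell and 2 rose, beside the same 43.6% and 15.3% of all features. Of 17946 named genes 5030 fell and 3909 rose there. The adaptor Sh2d2a, which binds KDR, was at -2.71 and the kinase Bmx at -1.76, and Shc1 and Axl were higher by 0.72 and 0.79. Sh2d2a and Bmx were called lower against vehicle EC as well, at -2.83 and -1.51.

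In EC against bulk, 15 of 20 genes that respond to VEGF or mark tip cells rose and 1 fell, with a median of 2.14. Of all features 18.1% were called higher there and 16.8% lower. Robo4 at 6.25, Esm1 at 4.71 and Nid2 at 4.36 led. In resistant against sensitive EC 5 of 20 fell, against 43.6% of all features and 5030 of the 17946 named genes, and none rose. They were led by Egr3 at -1.66, Igfbp3 at -1.22 and Dll4, the Notch ligand of tip cells, at -1.20. The list median was -0.41. Among the 18 endothelial markers 15 fell and none rose in that comparison, with a median of -0.78, against -0.49 for all features and 0.11 for all named genes. Against vehicle EC 1 of 20 responsive genes (Egr3, -1.82) and 1 of 18 endothelial markers (Cldn5, -0.67) fell, where 43.2% of all features were called lower. Of the named genes 4768 were called lower there. Of the 6 other receptors that sunitinib inhibits, 3 fell in resistant against sensitive EC, Ret at -2.29, Pdgfrb at -0.84 and Kit at -0.61, a share near the 43.6% of all features, and none was called against vehicle EC. Of 11 macrophage markers 3 rose and none fell against sensitive EC, where 15.3% of all features and 3909 of 17946 named genes rose. Against vehicle EC 4 rose and none fell, where 15.5% of all features and 4114 of 17946 named genes rose. The mean level of the macrophage markers was 3.23 to 5.46 in resistant, 3.33 to 4.204 in sensitive and 2.57 to 4.24 in vehicle EC, and these ranges overlapped.

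The genes whose levels were most like those of each probe were sought among 16581 named genes, by Pearson's r over the 32 arrays after subtracting the group means. The other Kdr probe was most like Fzd4, at 0.89, Tspan7, at 0.88, and Egfl7, at 0.87, the last an endothelial marker. The brighter Kdr probe was most like Acox3, at 0.96. Flt4 was most like Dll4, at 0.83, Flt1 like E2f7, at 0.86, Nrp1 like Glyr1, at 0.72, and Nrp2 like Huwe1, at 0.94. Over the 10 group means the other Kdr probe was most like Egfl7 and Afap1l1, at 0.99 each, the brighter one like Acox3, at 0.97, and Flt4 like C1qtnf9 and Col4a1, at 0.99 each. Arrays share slides and scaling, so these are descriptions. No r was recomputed without the bulk arrays of resistant mouse 2 or vehicle mouse 3.

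Between the probes of 1 gene, the same r was 0.06 for Kdr and 0.88 for Nrp2. Flt1 had an r of 0.74 with Nrp2, 0.55 with the other Kdr probe and -0.47 with the brighter one. Nrp1 was at 0.22 with Nrp2. The brighter Kdr probe had r from -0.47 to 0.06 with the other probes, and Flt4 from -0.39 to 0.18.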

How the data were processed

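Intensities came from Agilent Feature Extraction, version 10.7.3.1 per the file headers and 9.1 per the submitters' processing notes. The authors' deposited table holds normalised intensities of the same arrays, whose r with the scanner values was 0.966 to 0.991 and whose method is not given in the sources used here. It was used, on a log2 scale, as an alternative.

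The deposited processed signal (intensity) of each spot was used. Control spots and 667 non-uniform spots were left out, no spot was saturated, spots of a probe were averaged, and log2 values had the 75th percentile of their array subtracted. Of 55681 probes, 26582 were named, for 20145 genes. A gene was tested by its brightest probe, and unnamed probes were tested as features of their own. Features well above background on at least 4 arrays of a fit (2 for smaller tumours and stages) entered limma (version 3.58.1, R 4.3.3), with p-values adjusted with Benjamini-Hochberg over all features of the fit. EC against bulk had mouse as a block, since the labels give both fractions of a tumour the same mouse. The number of arrays limits the precision.

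The reported EC values come from a fit that did not pair resistant and sensitive arrays of the same number. Their deviations from the group means correlated at 0.103 to 0.325 in 3 of 3 pairs. The values with the mouse number as a block, on arrays of shared numbers only, are therefore given beside the reported ones. Members and lists were chosen with earlier results of these data known. Named were the 5 genes, up to 3 called members of each list and direction, and genes among the 3 most like each probe, of which 1 is not reported here. Alternatives were normexp (offset 50), on the median signal since the files hold no mean signal, quantile scaling, the deposited values, other filters, the mean of a gene's probes, replicate blocks, single slides and leaving out each array. The scripts were tested on simulated data.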

Additional observations from a re-analysis of the deposited data

Results flagged for a closer look

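In 3 of 42 sets of 4 arrays, 1 array lay far from the other 3 by Dixon's criterion, and chance gives this in about 5% of sets. Sensitive mouse 5 had an EC level of 1.75 for the other Kdr probe, where the other 3 sensitive mice lay between 2.90 and 3.04. The same EC array had Nrp1 at -0.33, against 0.29 to 0.39 in the others. In EC of sensitive mouse 4 the brighter Nrp2 probe was at 4.48, against 4.26 to 4.27 in the others.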

How the results depend on the processing

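Of 130 tested values of the 7 probes 23 were called. Under 11 settings other than leaving out arrays or mice in turn they gave 175 values. Of these 159 kept direction and call, 14 lost the call and 2 reversed. Both reversals were Flt4 in resistant against sensitive EC, at 0.071 under quantile scaling and 0.19 in the deposited values. Of 810 values not called, 31 became called. Named genes alone was an alternative chosen after seeing the data. The causes were not tested.

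The number of the 5 genes called moved as follows. In resistant against sensitive EC it was 2 with normexp, quantile scaling, the deposited values, the filter on every array and the replicate block, against 3. In resistant against vehicle EC it was 2 with quantile scaling and the deposited values and 0 with the mean of probes or the replicate block, against 1. In resistant against sensitive bulk it was 1 with quantile scaling and the mean of probes and 0 with the replicate block, against 2. In resistant against vehicle bulk it was 0 with the mean of probes or the replicate block, against 1. At 600 mm3 it was 1 with normexp, the deposited values, the filter on every array and named genes alone, against 0. For EC against bulk in resistant mice it was 2 with normexp, quantile scaling, the deposited values, the filter on every array, named genes alone, the mean of probes and no replicate block, and 0 on the resistant slide alone, against 1. In vehicle mice it was 1 with no filter, against 2. Leaving out single arrays gave 0 to 2 genes in resistant against vehicle EC and 1 to 2 in resistant against sensitive bulk. For EC against bulk, single mice were left out with both their arrays. This gave 1 to 4 genes in resistant mice, 1 to 3 in vehicle mice, 3 to 4 in sensitive mice and 3 to 5 averaged.

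Counts over all features ranged widely: 8876 to 27230 in resistant against sensitive EC (23994 as reported), 8853 to 27564 in resistant against vehicle EC (23909), 0 with the replicate block to 19639 without resistant mouse 2 in resistant against sensitive bulk (6114), 0 to 17149 in resistant against vehicle bulk (4367), 9308 to 24982 for EC against bulk (14725), 0 to 13839 in resistant mice (5807), 3579 to 15321 in sensitive mice (7964), 1530 to 15155 in vehicle mice (6152), 0 to 315 at 600 mm3 (111), 90 to 1232 for 600 mm3 against day 9 (964), 2000 to 18927 for sensitive (5000) and 224 to 14971 for vehicle mice (2171) at 1300 mm3 against smaller tumours, 0 to 48 for the difference between stages (18) and 0 to 1608 for the fraction difference of resistant against vehicle mice (126).

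With the replicate block the bulk Kdr values were -1.41 against sensitive and -1.12 against vehicle mice (adjusted p = 0.407 and 0.385) and the Nrp1 value 1.14 (adjusted p = 0.539), on the arrays of shared numbers only. Same-numbered bulk arrays correlated at -0.009 to 0.19 (resistant and sensitive) and 0.072 to 0.311 (resistant and vehicle). The reported bulk values come from a fit that did not pair them. Low signal limits Flt4 in bulk at 1300 mm3, where 3 of 12 arrays were above background.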
